A study of Mus musculus with 20 samples.

Results

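The acute phase proteins examined here are plasma proteins that the liver releases during inflammation, and they were taken as 10 genes, the serum amyloid A genes *Saa1*, *Saa2*, *Saa3* and *Saa4*, the orosomucoid genes *Orm1* and *Orm2*, *Hp*, *Hpx*, *Lcn2* and *Apcs*. The members are every probe of the array whose RefSeq accession belongs to 1 of these genes, which gave 12 of 41174 probes. All 12 were among the 27346 probes with signal above the negative controls. Each gene had 1 probe except *Saa1* and *Saa4*, which had a brighter and a dimmer one, and the brighter represents the gene unless the dimmer is named. Liver RNA came from 20 male Muta™Mouse animals (transgenic mouse strain 40.6, which carries a *lacZ* reporter), 25 weeks old. Controls (replicates 1 to 5) received olive oil by daily gavage, and the exposed groups received benzo(a)pyrene (BaP) in olive oil at 25 (replicates 6 to 10), 50 (replicates 11 to 15) or 75 mg/kg/day (replicates 16 to 20). Dosing lasted 28 days and tissue was taken 3 days after the last dose, so the values describe livers after repeated dosing and a pause.

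The acute phase response is driven mainly by interleukin 6 and interleukin 1 reaching the hepatocyte, where STAT3, C/EBP and NF-kappa B proteins act on the promoters of these genes. Serum amyloid A1, A2 and A3 are strongly inducible and travel with high density lipoprotein, serum amyloid A4 is made at a steady level, orosomucoid binds drugs and dampens inflammation, haptoglobin and hemopexin remove free hemoglobin and heme, lipocalin 2 withholds iron from bacteria, and serum amyloid P (*Apcs*) is the main pentraxin of the mouse. In bulk tissue, fewer cells of a type and less RNA per cell cannot be told apart.

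Each animal had 1 array, on which its RNA carried 1 dye (Cy5) and a universal reference RNA pooled from 11 mouse cell lines carried the other (Cy3). Values are log2 ratios of liver over reference unless the liver channel alone, or the reference channel alone, is named; those are log2 intensities of 1 dye put on a common distribution over arrays (quantile normalization). Arrays had from 25144 to 33636 probes over the limit set by the negative controls. Control replicate 4 had the highest number, and it also had the lowest log2 ratio of all 20 arrays for 9 of the 12 acute phase probes. The members' counts in the log2 ratio, and list values there that moved by over 1.5 times, are therefore also given without it. Counts and medians of 1 channel alone are given with all 20 arrays only, although several members read low on that array in the liver channel too. The arrays lay on 6 slides. The labels name both liver and lungs. Of 10 hepatocyte markers, the 8 with a present probe, among them *Alb*, *Apoa1* and *Ttr*, were well above background on 20 of 20 arrays, and of 8 lung epithelium markers the surfactant genes *Sftpc* and *Sftpb* were not present. The other lung markers were, with *Lamp3*, *Aqp5* and *Hopx* well above background on 20 arrays, the surfactant gene *Sftpa1* on 16, *Scgb1a1* on 5 and *Ager* on 1.

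Promoter sequence was available for 8 of the 10 genes (from RefSeq, mouse build GRCm38.p6). Those of *Orm1* and *Hp* were not in the table. Shown are the 220 bases before the transcription start, 5′ to 3′ on the strand of the gene. The genes are the near-identical *Saa1* and *Saa2*, then *Saa3* and *Lcn2*, whose values varied most between arrays, and *Orm2*. Capitals mark matches to the C/EBP-type motif TTGCNNAA, searched on both strands (that of *Saa3* reads on the opposite strand).
Saa1 (chr7:46742981-46743200, -): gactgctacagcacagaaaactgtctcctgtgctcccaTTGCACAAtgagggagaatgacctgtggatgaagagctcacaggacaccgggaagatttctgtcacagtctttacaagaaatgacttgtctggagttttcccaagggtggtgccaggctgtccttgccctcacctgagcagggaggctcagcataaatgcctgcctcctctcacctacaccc
Saa2 (chr7:46751613-46751832, +): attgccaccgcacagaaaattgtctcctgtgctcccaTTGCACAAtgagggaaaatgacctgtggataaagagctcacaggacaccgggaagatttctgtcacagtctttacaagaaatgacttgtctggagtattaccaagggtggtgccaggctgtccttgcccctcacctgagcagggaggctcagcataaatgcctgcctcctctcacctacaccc
Saa3 (chr7:46715677-46715896, -): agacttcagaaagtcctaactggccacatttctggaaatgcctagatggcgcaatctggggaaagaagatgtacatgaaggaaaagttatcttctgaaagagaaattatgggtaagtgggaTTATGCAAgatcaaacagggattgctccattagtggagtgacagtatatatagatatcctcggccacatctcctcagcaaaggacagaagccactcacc
Orm2 (chr4:63362229-63362448, +): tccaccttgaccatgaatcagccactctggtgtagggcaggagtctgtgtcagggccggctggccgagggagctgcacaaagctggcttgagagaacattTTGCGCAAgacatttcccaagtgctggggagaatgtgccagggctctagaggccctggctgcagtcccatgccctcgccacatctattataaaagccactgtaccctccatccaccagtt
Lcn2 (chr2:32387740-32387959, -): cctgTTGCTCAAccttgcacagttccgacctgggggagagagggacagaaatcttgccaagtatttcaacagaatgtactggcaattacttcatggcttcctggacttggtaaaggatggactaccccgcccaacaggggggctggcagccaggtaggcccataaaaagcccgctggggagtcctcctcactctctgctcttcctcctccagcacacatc
This motif was found in the 250 bases before the start of 7 of the 8 genes (all but *Apcs*), and in 9.56% of 32851 mouse promoters of the same length. The STAT-type motif TTCNNNGAA was found in 1 of the 8 (*Apcs*) against 7.02% of all promoters, the NF-kappa B-type motif in 0 of 8 against 7.25%, and the xenobiotic response element core GCGTG, to which the aryl hydrocarbon receptor binds, in 0 of 8 against 28.2%. None of the matches found in these genes overlapped another. A match describes letters only, and a motif absent here may lie outside the window. The annotated spans of *Saa1* and *Saa3* reach upstream of the start used here, to 46743181 and 46719615. Their windows thus lie partly (*Saa1*) or wholly (*Saa3*) inside the gene, and the matches hold for the start used. The *Saa1* and *Saa2* promoters were 94.8% identical over their 250 bases, against 45.5 to 52.2% for the other pairs among the 4 serum amyloid genes. The RefSeq table lists *Saa1* and *Saa2* as synonyms of each other. Whether the probes separate the transcripts of the near-identical *Saa1* and *Saa2*, or of *Orm1* and *Orm2*, was not tested, and their values are uncertain in that respect.

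The acute phase probes varied in both dyes, and most differences from control had opposite signs in the log2 ratio and in the liver channel alone. The reference RNA is the same on every array, yet for each of the 12 probes its signal was higher on arrays with a higher liver signal. Pearson's r between the 2 channels over 20 arrays was 0.93 for *Apcs* (rho 0.84), 0.86 for the dimmer *Saa1* probe (rho 0.92), 0.85 for *Orm2* (rho 0.83), 0.80 for the brighter *Saa1* probe (rho 0.85), 0.76 for *Saa2*, 0.70 for *Lcn2*, 0.69 for *Saa3* and 0.47 for *Orm1*, the lowest. All 12 passed a permutation test of r (two-sided, 100000 permutations, adjusted over 12 probes), with adjusted p from 3e-05, which rests on the smallest p the permutations can give, to 0.0369 for *Orm1*. Without the 2 arrays farthest from the median liver signal, r was 0.39 to 0.85, and with slide means removed it was 0.35 to 0.95. The median r over all present probes was 0.35, and the members' r lay between percentile 63.5 (*Orm1*) and percentile 98.8 (*Apcs*) of these probes. The share of all probes that would pass the permutation test was not computed, so passing it is not particular to the members. These permutations took no account of slides. The reference channel of the members spread widely for an RNA common to all arrays, with SDs over arrays from 0.38 for *Lcn2* to 1.07 for the dimmer *Saa1* probe, against a median of 0.16 over all present probes. The cause was not tested. A ratio divides out whatever the 2 channels share, and the liver channel alone keeps it, so both are given below.

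**Figure D1:**
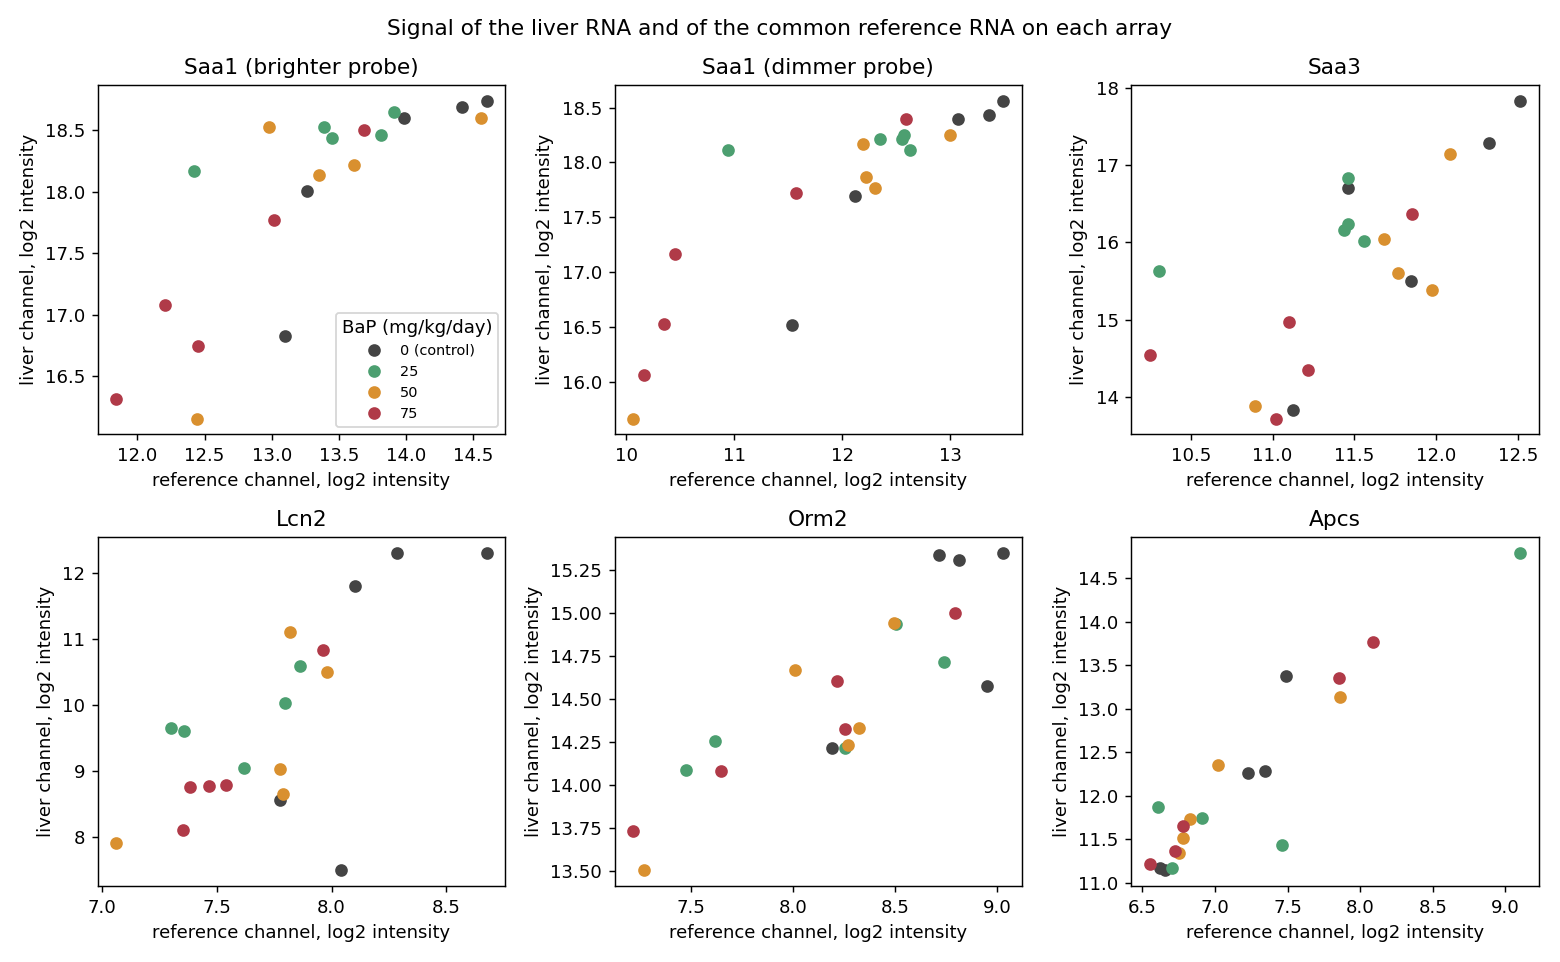
Each point is 1 of 20 arrays, with the reference channel (log2 intensity) across and the liver channel (log2 intensity) up, for both *Saa1* probes, *Saa3*, *Lcn2*, *Orm2* and *Apcs*; color gives the BaP dose. The channels rise together for every probe shown, with r from 0.69 for *Saa3* to 0.93 for *Apcs*.

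On the log2 ratio, no acute phase probe was called at any dose, and most genes lay slightly above control. A probe was called when it changed over 1.5-fold with an adjusted p below 0.05 (limma over all 27346 probes, Benjamini-Hochberg). At 25 mg/kg/day 0 of 12 probes were called against 0% of all probes, at 50 mg/kg/day 0 of 12 against 0%, and at 75 mg/kg/day 0 of 12 against 0.135%. In the linear trend with dose, 0 of 12 passed an adjusted p of 0.05 against 0.157%. At an unadjusted p under 0.05 the counts were 0, 0, 1 and 1 of 12, beside 7.81, 6.7, 11.2 and 8.58% of all probes. The gene medians were 0.21, 0.14 and 0.29 at 25, 50 and 75 mg/kg/day, with 8 of 10 genes above control at each dose, beside 50.3, 49.2 and 50.6% of all probes and medians of 0.00088, -0.0032 and 0.0025. Without control replicate 4 the medians were 0.067, 0.0063 and 0.11, with 6, 5 and 8 genes above control. The medians turned to -0.087, -0.25 and -0.48 in the liver channel alone, with 4, 0 and 1 of 10 genes above control, again with 0 probes called and 0, 1 and 3 of 12 at an unadjusted p under 0.05 (4.97, 5.2 and 8.07% of all probes). In the reference channel alone 9 of 10 genes were lower at 75 mg/kg/day, with a median of -0.70 and 9 of 12 probes at an unadjusted p under 0.05 (4.24% of all probes). None of those 9 passed adjustment over all probes (limma, adjusted p = 1).

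**Figure D2:**
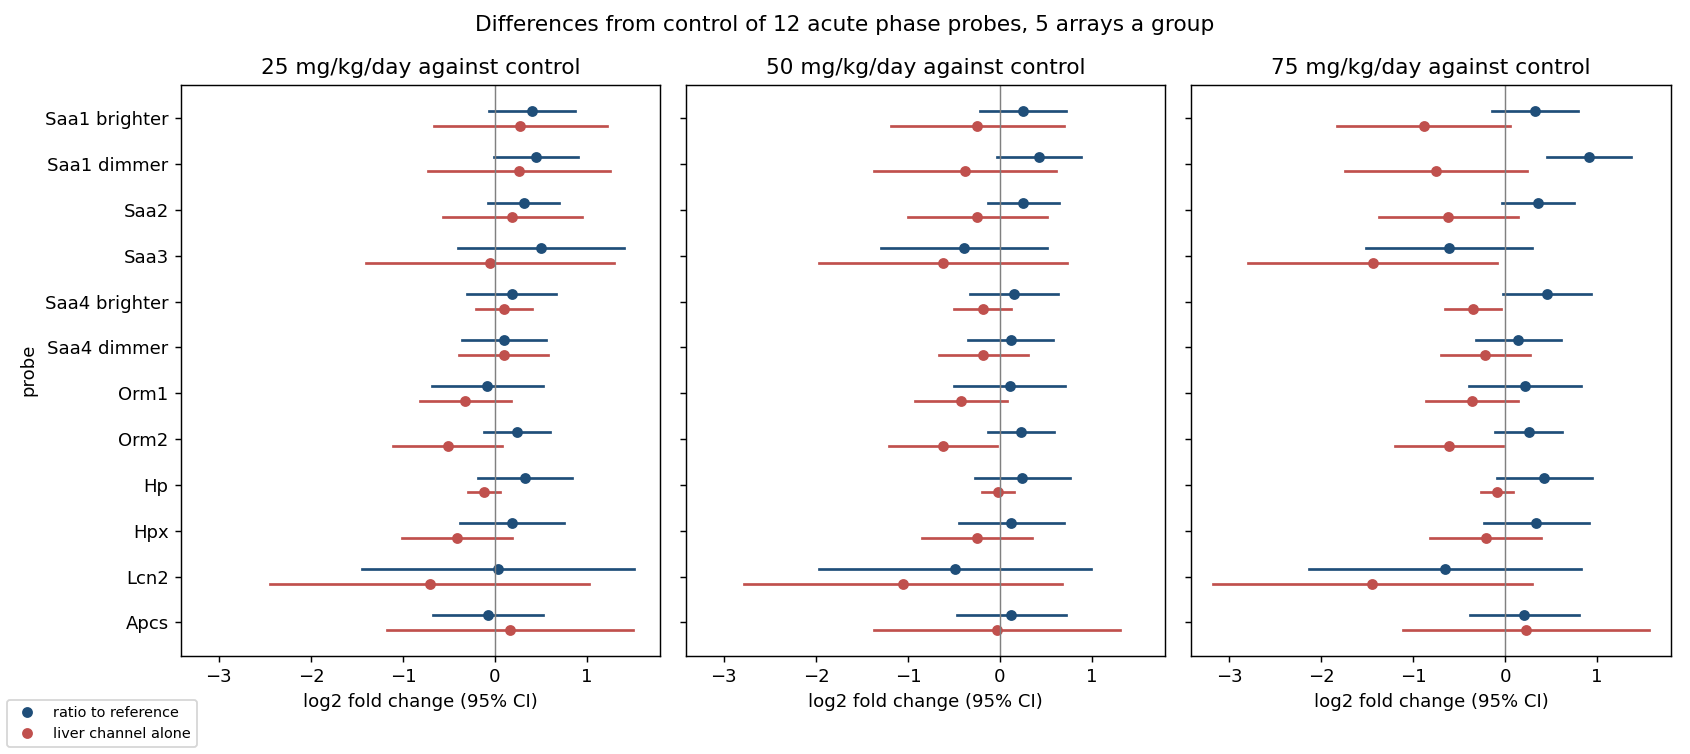
Log2 fold change against control (points) with the 95% confidence interval (lines) for 12 probes at each dose, 5 arrays a group, from the ratio to the reference (blue) and from the liver channel alone (red). At 75 mg/kg/day the dimmer *Saa1* probe is at 0.91 in the ratio and at -0.75 in the liver channel, and 11 of 12 probes are below 0 in the liver channel.

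*Saa1* encodes a principal inducible serum amyloid A of mouse plasma. Its dimmer probe had log2 ratios of 5.44, 5.00, 5.22, 4.60 and 4.74 in controls and 5.53, 5.64, 5.92, 6.21 and 6.26 at 75 mg/kg/day. All 5 animals at the top dose were above all 5 controls, which held for 1 of the 12 acute phase probes and for 0.936% of all probes. At 25 and 50 mg/kg/day this held for 0 of 12 probes, against 0.559 and 0.516% of all. The top dose differed from control by 0.91 (SE 0.22, 95% CI 0.46 to 1.36, a 1.88-fold change), with an adjusted p of 0.115 in limma, while the lower doses gave 0.45 and 0.42 (adjusted p = 0.641 and 0.753). It passed the threshold without replicate 6 of the 25 mg/kg/day group, an array that enters only through the shared spread (adjusted p = 0.029), and its trend with dose passed with slide as a block (adjusted p = 0.0318) or without that replicate (adjusted p = 0.0202), against 0.141 otherwise. Within the 3 slides that held both groups, the top dose exceeded the control by 1.04, 1.18 and 0.083.

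The liver channel alone ran the other way. The dimmer probe read 17.70, 18.39, 18.56, 16.52 and 18.43 in controls and 18.39, 17.72, 16.07, 16.53 and 17.17 at 75 mg/kg/day. Its reference channel read 12.12, 13.07, 13.49, 11.54 and 13.36 in controls and 12.59, 11.57, 10.16, 10.35 and 10.45 at that dose. Replicates 18, 19 and 20 were below every control in the reference channel, but only replicate 18 was in the liver channel. Relative to the control means (17.92 in the liver channel, 12.71 in the reference), replicates 17, 18, 19 and 20 were lower in both channels. On each of these arrays the reference channel was lower by more. The groups overlapped in the liver channel, where the difference was -0.75 (95% CI -1.74 to 0.24, limma adjusted p = 0.756).

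The brighter *Saa1* probe had log2 ratios of 4.54, 3.66, 4.07, 3.19 and 4.23 in controls and 4.46, 4.11, 4.30, 4.09 and 4.39 at 75 mg/kg/day. The top dose animals lay within the range of the controls. The difference was 0.33 (SE 0.22, limma adjusted p = 0.601), and over the 20 arrays the 2 probes of the gene were only loosely related (r 0.41, rho 0.25). On its liver channel the brighter probe read 18.01, 18.68, 18.74, 16.83 and 18.59 in controls, 18.14, 18.59, 16.16, 18.53 and 18.21 at 50 mg/kg/day, and 18.50, 17.77, 16.32, 16.75 and 17.08 in the top dose group. Low values thus occurred in control replicate 4, in replicate 13 at 50 mg/kg/day and in replicates 18, 19 and 20, while all 25 mg/kg/day animals were between 18.16 and 18.65. The liver channel difference at 75 mg/kg/day was -0.89 (95% CI -1.82 to 0.050, limma adjusted p = 0.65).

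*Saa2*, the near-twin of *Saa1*, had log2 ratios of 3.98, 3.78, 4.08, 3.21 and 3.57 in controls and 3.91, 3.96, 4.05, 4.14 and 4.35 at 75 mg/kg/day. The top 2 exposed animals exceeded every control and the others overlapped them. The difference was 0.36 (SE 0.19, limma adjusted p = 0.481) in the ratio and -0.61 in the liver channel (adjusted p = 0.716). In that channel *Saa2* reached 18.74 on several arrays, the highest value the common distribution holds, so the upper end of its range is bounded by the normalization. The brighter *Saa1* probe also reached 18.74, in control replicate 3, so the same bound applies to it.

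*Saa3*, an inducible serum amyloid A also made by macrophages and other cells outside the liver, was the second most variable member. Its log2 ratios were 3.69, 4.69, 5.32, 2.77 and 5.04 in controls, 5.21, 5.24, 4.60, 4.51 and 4.44 at 25 mg/kg/day, 3.40, 5.07, 3.08, 4.22 and 3.79 in the 50 mg/kg/day group, and 4.30, 3.86, 2.81, 3.19 and 4.29 in the top dose group. The controls alone spanned the full range of the gene, from replicate 4 to replicate 3, which is 5.86-fold, and every exposed animal lay inside it. The differences were 0.50, -0.39 and -0.61 (SE 0.43, limma adjusted p = 0.782, 0.894 and 0.623), and the spread left after group means was larger than that of 99.2% of all present probes. Its liver channel differed by -1.44 at the top dose (95% CI -2.79 to -0.088), which did not pass adjustment over all probes (adjusted p = 0.582).

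*Saa4*, the constitutive member, differed by 0.46 at 75 mg/kg/day in its brighter probe (SE 0.23, limma adjusted p = 0.47) and by 0.14 in its dimmer probe (adjusted p = 0.85). The brighter probe had log2 ratios of 6.13, 4.85, 5.06, 5.07 and 5.68 in controls and 6.04, 5.60, 5.88, 5.52 and 6.02 at the top dose, which overlapped. Its 2 probes ran against each other over arrays (r -0.22, rho -0.28), and differences between slides made up 74.8% of the variation of the brighter probe and 67.1% of that of the dimmer. With slide as a block the difference at 25 mg/kg/day moved from 0.18 to -0.071. The liver channel of the brighter probe differed by -0.35 at the top dose (95% CI -0.66 to -0.044, adjusted p = 0.542).

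**Figure D3:**
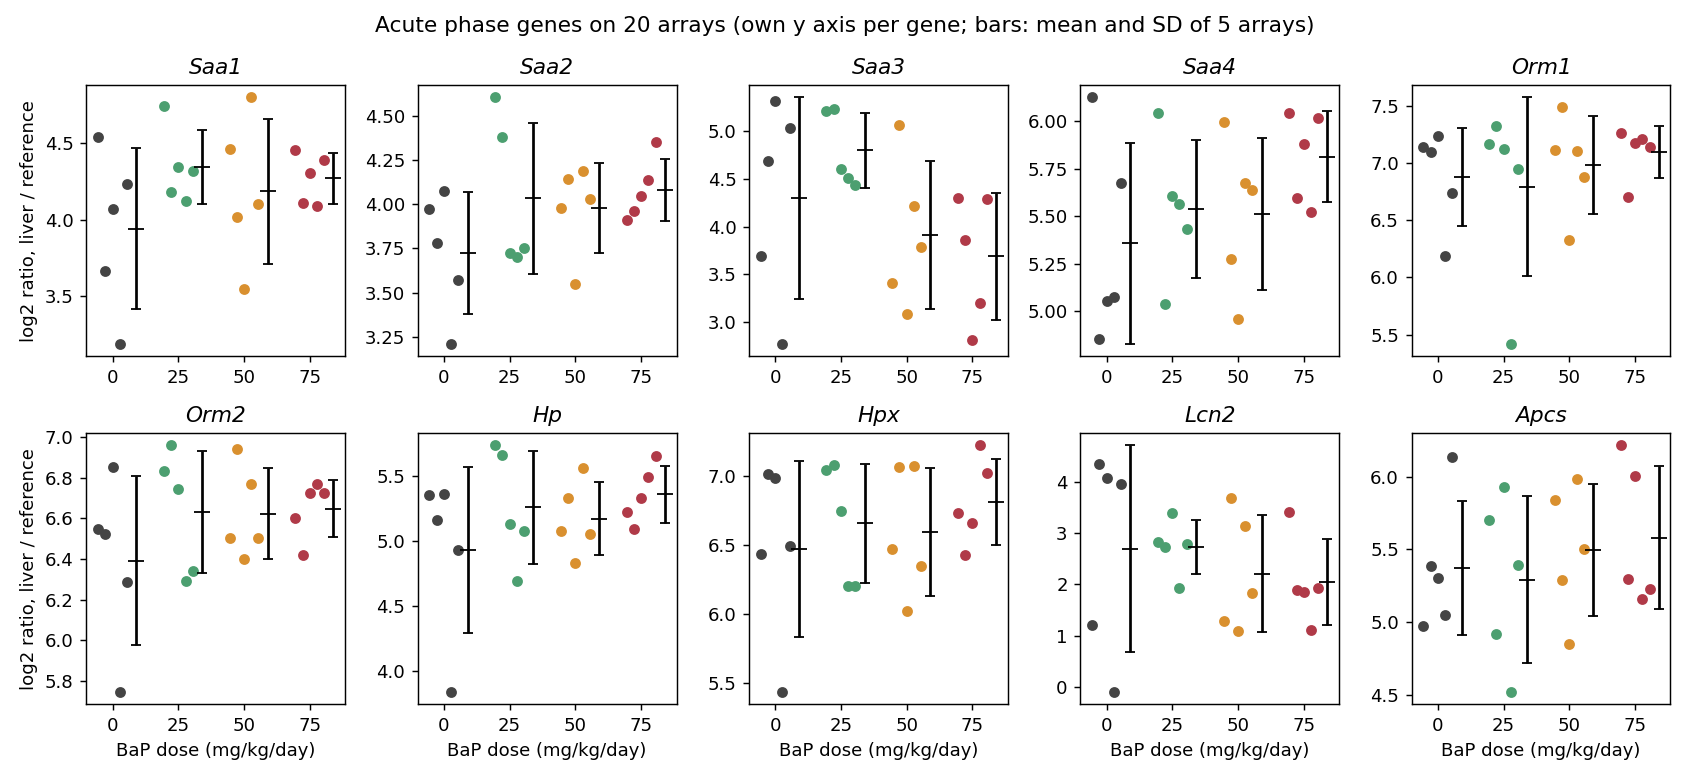
Log2 ratio of liver over reference (own scale for each gene) for the 10 genes, represented by the brighter probe where there are 2, against BaP dose. Points are arrays in the order of replicate number, and bars give the mean and SD of 5 arrays; the control with the lowest value is replicate 4 for every gene except *Saa4* and *Apcs*, and *Lcn2* controls run from -0.093 to 4.34.

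The orosomucoid genes, which encode the alpha-1-acid glycoproteins, stayed within the control range in most exposed animals. *Orm1* had log2 ratios of 7.14, 7.09, 7.24, 6.19 and 6.73 in controls and 7.17, 7.32, 7.12, 5.42 and 6.95 at 25 mg/kg/day, where replicate 9 stood far below the rest. Its differences were -0.082, 0.10 and 0.22 (SE 0.29, limma adjusted p = 0.96, 0.966 and 0.823). The first became 0.26 without replicate 9 and 0.0072 without control replicate 3, and the second became -0.068 without control replicate 4 and -0.022 without replicate 12. *Orm2* differences were 0.24, 0.23 and 0.26 (SE 0.17, adjusted p = 0.736, 0.828 and 0.599). Both genes were below control at each dose in the liver channel, where *Orm1* differed by -0.32, -0.42 and -0.36 and *Orm2* by -0.51, -0.62 and -0.61 (limma adjusted p of at least 0.599).

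*Hp* (haptoglobin) and *Hpx* (hemopexin), the scavengers of hemoglobin and heme, followed the same course. *Hp* had log2 ratios of 5.36, 5.16, 5.37, 3.84 and 4.94 in controls and 5.23, 5.09, 5.33, 5.50 and 5.66 at 75 mg/kg/day, with control replicate 4 far below the other 19 arrays. Its differences were 0.33, 0.24 and 0.43 (SE 0.25, limma adjusted p = 0.75, 0.883 and 0.528). *Hpx* differences were 0.19, 0.12 and 0.34 (SE 0.27, adjusted p = 0.887, 0.955 and 0.677). Without control replicate 4, *Hp* was -0.032 at the middle dose and *Hpx* was -0.073 and -0.13 at the low and the middle dose. *Hp* spanned 1.32-fold over all animals in the liver channel, from 18.25 to 18.65, near the upper bound of the distribution, while its reference channel spanned 3.99-fold. By SD over the 20 arrays its reference channel (0.54) varied more than its liver channel (0.12).

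*Lcn2*, which encodes the iron-sequestering lipocalin 2 and is made by hepatocytes and neutrophils, varied most. Its log2 ratios were 1.20, 4.34, 4.08, -0.093 and 3.95 in controls, 2.82, 2.73, 3.38, 1.93 and 2.78 at 25 mg/kg/day, 1.29, 3.68, 1.099, 3.13 and 1.83 in the 50 mg/kg/day group, and 3.41, 1.89, 1.85, 1.12 and 1.92 in the top dose group. Among controls, replicates 2, 3 and 5 were high and replicates 1 and 4 low, and these 5 animals spanned 21.6-fold, the whole range of the 20 arrays. Its spread after group means exceeded that of 99.8% of all present probes. The differences of 0.033, -0.49 and -0.66 had an SE of 0.71 each (limma adjusted p = 0.995, 0.926 and 0.774), and the first moved to -0.66 without control replicate 4, to -0.34 without control replicate 1 and to -0.13 without replicate 8. With slide as a block the top dose difference was 0.068. The liver channel split the controls into the same high and low replicates, with values of 8.56, 12.31, 11.80, 7.50 and 12.31. It had top dose animals at 10.83, 8.78, 8.80, 8.11 and 8.75. Differences there were -0.71, -1.06 and -1.44 (95% CI of the last -3.17 to 0.29, adjusted p = 0.708). The groups overlapped at each dose.

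*Apcs* (serum amyloid P), a pentraxin that binds amyloid and bacterial surfaces, had the highest r of the members between channels, though not the highest rho. Its log2 ratios were 4.97, 5.38, 5.30, 5.05 and 6.14 in controls and 6.22, 5.30, 6.00, 5.16 and 5.23 at 75 mg/kg/day, overlapping widely. Differences were -0.077, 0.12 and 0.21 (SE 0.29, limma adjusted p = 0.962, 0.959 and 0.827), and the first turned to 0.11 without control replicate 5, 0.12 without replicate 9 and 0.016 without replicate 7. *Apcs* spanned 12.6-fold between arrays in the liver channel. The highest value, 14.80, was in replicate 8 at 25 mg/kg/day, with the other 4 animals of that group between 11.17 and 11.88. Group means made up 1.13% of its liver channel variation and slides 58.3%.

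The members varied together between arrays. With 1 array per animal, differences between animals and between arrays cannot be told apart. Over the 45 pairs of genes and 20 arrays, 43 had a positive r in the log2 ratio, with a median of 0.46, and 12 passed with both Pearson's r and Spearman's rho (permutation with 100000 pairings, two-sided, adjusted over 45 pairs). The closest pairs were *Orm2* with *Hp* (r 0.91, rho 0.88), *Saa2* with *Hp* (r 0.91, rho 0.90), *Orm2* with *Hpx* (r 0.90, rho 0.86) and *Hp* with *Hpx* (r 0.89, rho 0.86), each with a permutation p adjusted to 0.00015 or less. Without the 2 arrays farthest from the median of the first gene these were 0.802, 0.887, 0.83 and 0.817, and with slide means removed 0.895, 0.925, 0.806 and 0.833. *Saa3* and *Lcn2*, the 2 most variable genes, correlated at r 0.83 (rho 0.84, permutation p adjusted to 9e-05), at 0.815 without the 2 farthest arrays, at 0.90 with slide means removed and at 0.855 with group means removed. *Saa1* and *Saa2* had r 0.66 but rho 0.37 (permutation p adjusted to 0.0054 and 0.224), and r was 0.37 without the 2 farthest arrays, 0.88 with slide means removed and 0.60 with group means removed. The reference channel of these probes varied between arrays as given above, and its part in these correlations was not tested. Pairings were permuted freely although arrays shared slides, so the permutation p-values take no account of slides. Correlations were not computed for pairs of other genes on either scale. Whether varying together is particular to the acute phase genes was therefore not tested. The mean log2 ratio of the 8 hepatocyte markers was also lowest in control replicate 4 (4.97).

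All 45 pairs were positive in the liver channel alone, with a median r of 0.62, and 32 passed the permutation test of r after adjustment. *Saa1* correlated with *Saa2* at 0.96 (rho 0.77) and with *Saa3* at 0.93 (rho 0.98), *Orm1* with *Orm2* at 0.96 (rho 0.95), and *Lcn2* with *Saa3* at 0.86 (rho 0.89), with *Orm2* at 0.85 (rho 0.81) and with *Orm1* at 0.83 (rho 0.78). The animals low for *Saa1*, namely control replicate 4 and replicates 13, 18, 19 and 20, were also the low ones for *Saa2* and *Saa3* in this channel. The correlation of *Saa3* with *Lcn2* was of similar size on both scales.

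**Figure D4:**
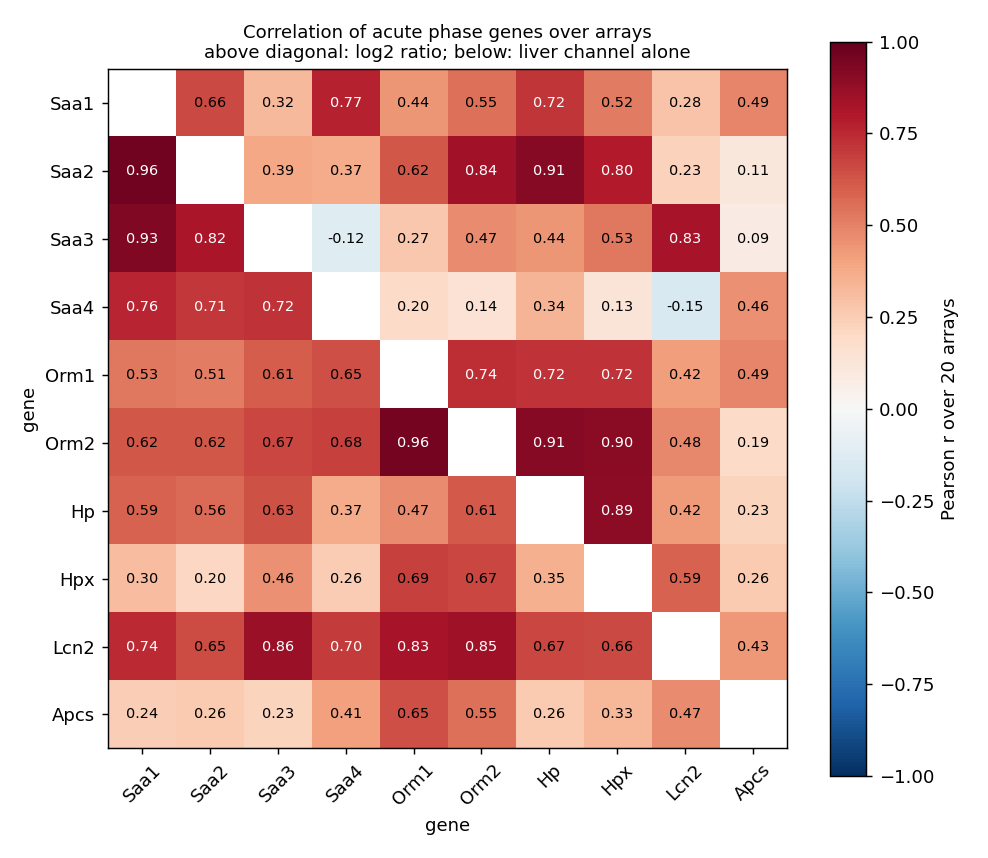
Pearson's r over 20 arrays for each pair of the 10 genes (rows and columns, color from -1 to 1), with log2 ratios above the diagonal and the liver channel alone below it. *Saa3* with *Lcn2* is 0.83 above and 0.86 below, whereas *Saa1* with *Saa3* is 0.32 above and 0.93 below.

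Genes whose log2 ratio followed *Lcn2* most closely among 12976 genes included *Syt12* (a synaptotagmin, r 0.75, rho 0.72), *Plekho2* (r 0.74, rho 0.68), the metallothionein *Mt2* (r 0.73, rho 0.74) and the metallothionein *Mt1* (r 0.72, rho 0.69), given as a description. Metallothioneins bind zinc and copper and are themselves induced in the acute phase. The r with *Lcn2* in the liver channel alone was 0.86 for *Syt12*, 0.80 for *Mt2*, 0.81 for *Mt1* and 0.43 for *Plekho2*. *Mt2* had a mean log2 ratio of -1.34 in controls (SD 2.25, n = 5, from -4.05 to 0.64) and -3.51 at 75 mg/kg/day (SD 0.29, n = 5). Its differences of -1.82, -1.99 and -2.17 were not called (limma adjusted p = 0.636, 0.685 and 0.286), and the controls overlapped the exposed animals.

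Further genes of the response were described through lists. Of 28 other positive acute phase genes, all tested, 0 were called at any dose by limma, with 5, 4 and 10 at an unadjusted p under 0.05 at 25, 50 and 75 mg/kg/day (7.81, 6.7 and 11.2% of all probes). Medians were 0.16, 0.22 and 0.22, and 21, 21 and 19 genes were above control. Without control replicate 4 the medians were 0.051, 0.088 and 0.10, with 15, 18 and 17 genes above control. By the liver channel alone 11, 13 and 10 were above control with medians of -0.053, -0.033 and -0.16. That channel also held the 1 call of this list, a trend with dose of *Mbl2*, a mannose-binding lectin (limma adjusted p = 0.0311). The fibrinogen chains *Fga*, *Fgb* and *Fgg*, which form the clot, differed by 0.40, 0.14 and 0.68 at 75 mg/kg/day, and the pentraxin *Crp* by 0.70. The protease inhibitor *Serpina3n* differed by 0.35, *Itih4* by 0.37, complement *C3* by 0.28, the endotoxin-binding *Lbp* by -0.15 and the iron regulator *Hamp* by 0.12, with limma adjusted p of at least 0.275 for all 9. The liver channel at that dose gave -0.63 for *Itih4*, -0.33 for *Lbp*, -0.22 for *Serpina3n* and -0.0997 for *Fga*. It gave 0.55 for *Crp*, 0.45 for *Hamp*, 0.093 for *C3*, 0.0898 for *Fgb* and 0.039 for *Fgg*.

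Negative acute phase genes, whose output falls in inflammation, lay above control in the ratio as the positive ones did, by 10, 9 and 10 of 10 genes with medians of 0.33, 0.31 and 0.38 and 0 called (limma, with 0, 0 and 5 at an unadjusted p under 0.05, beside 7.81, 6.7 and 11.2% of all probes). Without control replicate 4 their medians were 0.20, 0.18 and 0.25, and with slide as a block the one at the lowest dose was 0.165. At 75 mg/kg/day albumin (*Alb*) differed by 0.44, transthyretin (*Ttr*) by 0.34 and fetuin-A (*Ahsg*) by 0.39, and in the liver channel by -0.052, -0.060 and 0.053. The 8 hepatocyte markers tested were above control in all 8 cases at each dose, with medians of 0.32, 0.25 and 0.43, and at 4, 6 and 3 of 8 in the liver channel with medians of 0.0036, 0.12 and -0.033. At each dose the members' median ratio difference was below that of the hepatocyte markers, an order that turned at the lowest dose with slide as a block (0.159 against 0.149). Without control replicate 4 the hepatocyte medians were 0.21, 0.15 and 0.30. In the liver channel at 75 mg/kg/day the members' median of -0.48 lay below those of the negative acute phase genes (0.09) and the hepatocyte markers. The lists of negative acute phase genes and of hepatocyte markers share *Alb*, *Apoa1* and *Ttr*, so they are not separate comparisons. The difference between lists was not tested.

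Upstream genes showed no called change without slide as a block. Of 27 cytokine, receptor, kinase and transcription factor genes of the interleukin 6, STAT3 and C/EBP routes, 25 had a present probe, and 0 were called (limma, 4, 5 and 6 at an unadjusted p under 0.05, beside 7.81, 6.7 and 11.2% of all probes), with medians of 0.021, 0.11 and 0.0145, or 0.018, 0.069 and -0.019 without control replicate 4. At 75 mg/kg/day the interleukin 6 receptor genes *Il6ra* and *Il6st* differed by 0.26 and 0.023, *Stat3* by 0.45, its feedback inhibitor *Socs3* by -0.047, and *Cebpb* and *Cebpd* by -0.37 and -0.059, with limma adjusted p of at least 0.525. The lowest adjusted p of the whole list at that dose was 0.0655. *Il6* and *Il1b* differed by -0.47 and 0.25 at 25 mg/kg/day (limma adjusted p = 0.636 and 0.789). Their liver channel differed by -0.14 and 0.50 at 75 mg/kg/day (limma adjusted p = 0.781 and 0.542). The paper, with another test and 1 sample left out, reports a significant rise of *Il1b* and higher *Tnfrsf1a* at the top dose. Of 10 genes for receptors and clearance, *Cd163*, which takes up haptoglobin-bound hemoglobin, differed by -0.34, *Lrp1*, the hemopexin receptor, by -0.026, the lipocalin 2 receptor *Slc22a17* by -0.041, and *Hmox1*, which breaks down heme, by -0.10 (adjusted p of at least 0.542). *Marco*, a scavenger receptor of Kupffer cells, was the only gene of these lists called on the log2 ratio without a block. With slide as a block *Marco* was called at the middle dose too. *Tnfrsf1a*, a receptor of tumor necrosis factor from the upstream list, was then called at the top dose (0.79, limma adjusted p = 0.0436). *Marco* rose by 2.19 at the top dose (SE 0.30, limma adjusted p = 0.00148), going from a mean of 2.41 (SD 0.50, n = 5) in controls to 4.59 (SD 0.69, n = 5), and its trend passed too (adjusted p = 0.000291).

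Markers of other cells were set beside these values. Neutrophils also make *Lcn2*, and of 12 neutrophil markers 6 were present. *S100a9* was well above background on 20 arrays, *S100a8* on 17, *Mpo* and *Csf3r* on 9 each, *Ltf* on 4 and *Mmp8* on 1. *Ngp*, *Camp*, *Elane*, *Retnlg* and *Cxcr2* were not present, and *Ly6g* had no probe under its symbol, so it was not measured. The mean log2 ratio of the 6 was 0.28 to 0.66 in controls, 0.42 to 0.76 at 25, 0.47 to 0.76 at 50 and 0.47 to 1.07 at 75 mg/kg/day. *S100a9* alone differed by 1.34 at the top dose (limma adjusted p = 0.188), and without it the mean was -0.18 to 0.17 in controls and -0.14 to 0.22 at that dose. For 10 of 11 Kupffer cell markers, all well above background on 20 arrays, it was 2.29 to 2.65 in controls, 2.44 to 2.88 at 25, 2.49 to 3.19 at 50 and 2.44 to 3.01 at 75 mg/kg/day. Without *Marco* it was 2.31 to 2.64 in controls and 2.26 to 2.81 at the top dose. The median difference of all 10 markers at that dose, *Marco* included, was 0.14, or -0.0019 with slide as a block. For 4 of 6 adipocyte markers the mean log2 ratio was 0.92 to 1.29 in controls and 0.97 to 1.36 at the top dose. Of these markers, *Adipoq* was well above background on 1 array and *Lep* was not present. The part of these cells in the acute phase values was not tested.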

How the data were processed

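Liver RNA (Cy5) and a common reference RNA (Cy3) were measured on 1 two-color array per animal. The authors deposited median spot and background intensities without normalization (Feature Extraction 10.1.1.1 per the file headers), processed intensities that the software had background-subtracted and dye-normalized, and log2 ratios normalized by the authors with LOWESS. From the median intensities, log2 ratios were computed with normexp (offset 50), loess within each array and the mean over the spots of a probe. Present probes had a liver signal over a limit, the mean plus 3 SDs (trimmed by 5%) of the 153 negative control spots, on 4 or more of the 5 arrays of any group. Each dose was contrasted with control in limma 3.58.1 (R 4.3.3) over 27346 present probes and all 20 arrays, with a second model for a linear trend. Correlations were tested by permutation (Python 3.11.15, NumPy 2.4.6). The fit was tested on simulated data.

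Symbols came from RefSeq accessions, for 23374 probes. Where a gene had several present probes, the brightest was used. The 10 members and all lists were chosen with earlier results of these data known. Named were the members, further genes of the response picked whatever their values, any list gene called (also under an alternative), and the 5 genes most like the most variable member, of which 1 is not reported here. The 25 mg/kg/day of the sample labels was used, where the series text has 24 mg/kg for the lowest dose. The number of arrays limits the precision. The authors left a sample out of their own analysis after clustering and did not name it, so none was dropped here. Marker means without *Marco* and without *S100a9* were chosen after seeing the data. With 1 array per animal, p-values measure the spread between arrays, in which differences between animals and between arrays cannot be told apart. Differences between slides are part of that spread. Alternatives were slide as a block, processed signals, the authors' ratios, another offset, other presence rules, the liver channel alone, each dose alone with control, and leaving out each array.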

Additional observations from a re-analysis of the deposited data

Results flagged for a closer look

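Of 96 groups of 5 arrays (12 probes, 4 dose groups, log2 ratio and liver channel alone), 11 held an array whose gap to its nearest neighbor was over 0.71 of the range of the group; chance flags about 1 in 20 such groups. In the log2 ratio, 4 arrays stood out. *Orm1* was lowest in replicate 9 at 25 mg/kg/day (5.42, the others 6.95 to 7.32) and in replicate 17 at 75 mg/kg/day (6.70, the others 7.14 to 7.26). *Hp* was lowest in control replicate 4 (3.84, the others 4.94 to 5.37), and the dimmer *Saa4* probe was highest in replicate 12 at 50 mg/kg/day (6.92, the others 6.28 to 6.46).

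In the liver channel alone, replicate 13 at 50 mg/kg/day was the lowest of its group for 4 probes, the brighter *Saa1* probe (16.16, the others 18.14 to 18.59), the dimmer *Saa1* probe (15.67, the others 17.77 to 18.25), *Saa2* (16.58, the others 18.43 to 18.74) and the brighter *Saa4* probe (14.46, the others 14.98 to 15.12). The 4 probes share that array, and in the log2 ratio none of them met the same limit there. *Saa2* was also lowest in control replicate 4 (17.60, the others 18.50 to 18.74). *Lcn2* was highest in replicate 16 at 75 mg/kg/day (10.83, the others 8.11 to 8.80), and *Apcs* was highest in replicate 8 at 25 mg/kg/day (14.80, the others 11.17 to 11.88). No test of a cause was run.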

How the results depend on the processing

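Across the alternatives the number of acute phase probes called stayed at 0 at 25 and 50 mg/kg/day. At 75 mg/kg/day it was 0 to 1 when each array was left out, with 1 probe, the dimmer *Saa1* probe (0.91, adjusted p = 0.029), without replicate 6 of the 25 mg/kg/day group. The number of acute phase probes with a linear trend with dose was 0 to 1 on leaving out arrays, and 1 with slide as a fixed block (adjusted p = 0.0318) or a random block (adjusted p = 0.0488; correlation within slides 0.24). When single differences were recomputed under each alternative, 918 values kept direction and side of the threshold, 38 changed sign and 1 came to pass it.

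Most sign changes came with the liver channel alone. At 25 mg/kg/day it gave -0.053 for *Saa3*, -0.51 for *Orm2*, -0.12 for *Hp*, -0.41 for *Hpx*, -0.71 for *Lcn2* and 0.16 for *Apcs*. At 50 mg/kg/day it gave -0.24 and -0.38 for the brighter and dimmer *Saa1* probes, -0.25 for *Saa2*, -0.19 for *Saa4*, -0.42 for *Orm1*, -0.62 for *Orm2*, -0.020 for *Hp*, -0.25 for *Hpx* and -0.031 for *Apcs*. At 75 mg/kg/day it gave -0.89 and -0.75 for the *Saa1* probes, -0.61 for *Saa2*, -0.35 for *Saa4*, -0.36 for *Orm1*, -0.61 for *Orm2*, -0.088 for *Hp* and -0.21 for *Hpx*. With slide as a fixed block *Saa4* at 25 mg/kg/day was -0.071 and *Lcn2* at 75 mg/kg/day 0.068. The cause was not tested.

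On leaving out 1 array at a time, the difference at 25 mg/kg/day ran from -0.66 to 0.44 for *Lcn2*, -0.25 to 0.26 for *Orm1*, -0.07 to 0.32 for *Hpx* and -0.24 to 0.12 for *Apcs*, and at 50 mg/kg/day from -0.07 to 0.27 for *Orm1*, -0.03 to 0.35 for *Hp* and -0.13 to 0.27 for *Hpx*. Without control replicate 4, *Hpx* at 25 mg/kg/day was -0.073, and at 50 mg/kg/day *Orm1* was -0.068 and *Hp* -0.032. No paired analysis was possible because the replicate numbers are not shared between groups; arrays of different groups that share a slide were compared through the slide block and within slides instead. An array carries no count, so no depth limit is given, and all 12 probes were well above background in both channels on all 20 arrays.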
